A study of Mus musculus with 12 samples.

Results

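The Sprouty genes Spry1, Spry2 and Spry4, the Spred genes Spred1, Spred2 and Spred3, and Il17rd were followed in the dermal papilla (DP) of the mouse hair follicle after loss of the Fgf receptors Fgfr1 and Fgfr2. Of 8 genes listed by name, Spry3 among them, 7 were present among the 14986 protein-coding genes measured on both days, and Spry3 was not analysed here. The DP is the cluster of mesenchymal cells at the base of the follicle. Its cells were labelled with YFP through Cor-cre, which is placed in the Corin gene and acts in the DP after birth, and were sorted by FACS from dissociated skin. RNA came from 3 control and 3 dMF1/2 mice at postnatal day 14 (P14) and from 3 and 3 at P16, both labelled as anagen, the growth phase of the hair cycle, and each library held 1 mouse. The dMF1/2 mice carried Cor-cre and were homozygous for floxed alleles of Fgfr1 and Fgfr2. The labels call the controls wild type, while the methods of the study describe them either as Cor-cre heterozygotes with 1 floxed copy of each receptor or as mice without Cre that were homozygous for both floxed alleles. Because YFP needs Cre, sorted control cells would carry Cor-cre and 1 floxed copy of each receptor, but the genotype of single control mice was not given in the sources used here.

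An Fgf that binds its receptor tyrosine kinase recruits adaptor proteins and activates RAS, RAF, MEK and ERK in turn. Active ERK induces Ets factors such as Etv4 and Etv5, the phosphatase Dusp6, and the Sprouty genes, whose proteins act back on the pathway between the receptor and RAF. Spred proteins bring neurofibromin to the membrane, where it switches RAS off, and Il17rd, also called Sef, is a transmembrane protein that binds Fgf receptors or retains active ERK in the cytoplasm. Transcripts of the genes that ERK induces are therefore widely read as a measure of Fgf signal strength. The comparison of dMF1/2 with control mice asks how Sprouty, Spred and Il17rd transcripts stood once both receptors had been targeted in the DP.

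The regions before the start sites of Spred1, Spred2 and Il17rd are shown because these were the members that passed the test of genotype over both days. The bases come from RefSeq on GRCm38.p6, end at the base before the annotated start, and are written 5′ to 3′ on the strand of the gene. They lie at chr2:117120821-117121070 (plus strand), chr11:19924192-19924441 (plus strand) and chr14:27038751-27039000 (plus strand). RefSeq windows were found for 6 of the 8 listed genes.
Spred1: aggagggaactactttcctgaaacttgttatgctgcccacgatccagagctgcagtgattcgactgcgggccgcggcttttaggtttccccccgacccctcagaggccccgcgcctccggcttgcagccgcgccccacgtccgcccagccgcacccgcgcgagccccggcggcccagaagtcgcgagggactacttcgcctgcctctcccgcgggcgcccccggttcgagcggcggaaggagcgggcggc
Spred2: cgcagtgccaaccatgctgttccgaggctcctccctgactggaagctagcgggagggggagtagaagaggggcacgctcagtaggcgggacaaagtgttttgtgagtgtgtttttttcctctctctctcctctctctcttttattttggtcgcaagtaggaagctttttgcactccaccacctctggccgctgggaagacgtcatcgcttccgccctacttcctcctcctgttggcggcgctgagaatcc
Il17rd: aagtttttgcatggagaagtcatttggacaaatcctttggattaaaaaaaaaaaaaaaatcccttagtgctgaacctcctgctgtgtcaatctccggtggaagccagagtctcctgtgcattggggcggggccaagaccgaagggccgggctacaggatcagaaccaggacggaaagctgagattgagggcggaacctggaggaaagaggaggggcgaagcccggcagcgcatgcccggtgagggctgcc
A set of motifs for factors that act below ERK were searched on both strands over 300 bases, the 250 before the start and the 50 after it. They were CCGGAAG for the Ets family, TGACTCA for AP-1 and TGACGTCA for CREB. None of the 6 windows held any of them, so no base is in capitals, whereas 8.86%, 5.20% and 1.79% of 32851 promoter windows held the Ets, AP-1 and CREB motif. The absence of a match says only that these letters were not in these windows. The Spred1 stretch held 70.8% G and C, that of Spred2 56% and that of Il17rd 54.4%, against a median of 52.4% over all promoters.

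Libraries held 19302358 to 29860750 reads in genes. Values are normalized reads, the reads of a gene divided by the size factor of its library, on the scale of the day unless the scale of all 12 libraries is named. The P14 libraries numbered 1, of control and of dMF1/2, stood apart. Col1a1, Col1a2 and Col3a1 took 17.7% and 21.0% of their reads, against 27.2% to 36.1% in the other 10 libraries. The summed level of 6 dermal sheath markers was 16784 and 18118 in them on the 12-library scale, against 33806 to 49153 in the other 4 libraries of P14, and it was low in the P16 libraries numbered 1 too (19065 and 17841). In the P14 libraries numbered 1 the fibroblast sums were 50235 and 48438 against 79074 to 84586 in those 4, and the muscle sums 975 and 1330 against 3010 to 4921, while the DP sums of 156203 and 156714 were above the 93683 to 133078 of those 4. Spry1, Spry2, Spry4, Spred2 and Spred3 were higher in each of the P14 libraries numbered 1 than in the other libraries of its group, and values without them are given beside the results that they move most. All 13 DP markers, all 6 sheath markers and all 7 dermal fibroblast markers were measured, and the low lists were summed follicle keratinocyte markers with 87.1 to 486 normalized reads, melanocyte markers with 45.5 to 92.1 and immune markers with 184 to 443, against 41608 to 156714 for the DP list. In these bulk samples fewer cells of a type and less RNA per cell cannot be told apart.

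Fgfr1 was lower in every dMF1/2 mouse than in every control mouse on both days. At P14 the normalized reads were 8885 ± 1119 for control (SD, n = 3) against 6731 ± 583 for dMF1/2 (SD, n = 3), and at P16 they were 10323 ± 2030 against 7264 ± 929. Over both days the log2 fold change was -0.45 (standard error, SE, 0.11, limma adjusted p = 0.0311), and the adjusted p was 0.0556 without both P14 libraries numbered 1 and up to 0.0772 in the 8 of 12 fits without 1 library that lost the call. A block for the replicate number pairs control and dMF1/2 libraries of a day, a pairing that the labels do not state. With the block, Fgfr1 was also called at P16 (adjusted p = 0.0109, limma). For Fgfr2 they were 4783 ± 260 against 4483 ± 766 at P14 and 5079 ± 298 against 5081 ± 838 at P16, and its groups overlapped on both days. Both values sum reads over all exons of the gene, the floxed ones and the rest.

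The members covered a wide span of levels. Per kb of annotated exon and on the 12-library scale, Spry1 had the highest mean over the 12 libraries with 2519 normalized reads per kb, above 98.4% of the genes tested. Spry2 followed with 517, Spred1 with 477, Spry4 with 417, Spred2 with 297, Il17rd with 141 and Spred3 with 14.7, which was above 16.3% of genes. In P14 control mice the order of the middle group was Spry4 with 712 ± 225 normalized reads per kb (SD, n = 3), Spry2 with 619 ± 59.8, Spred1 with 465 ± 23.4 and Spred2 with 386 ± 54.9. Spry4 and Spry2 differed there by less than the spread of Spry4. In P16 control mice it was Spred1 with 593 ± 23.1, Spry2 with 479 ± 13.4, Spry4 with 363 ± 131 and Spred2 with 298 ± 23.8. Spry2, Spry4 and Spred2 followed each other within the spread of Spry4. Spry4 also had the widest range, 4.76-fold between its highest and lowest library, against 1.74-fold to 2.64-fold for the other 6 members.

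**Figure D1:**
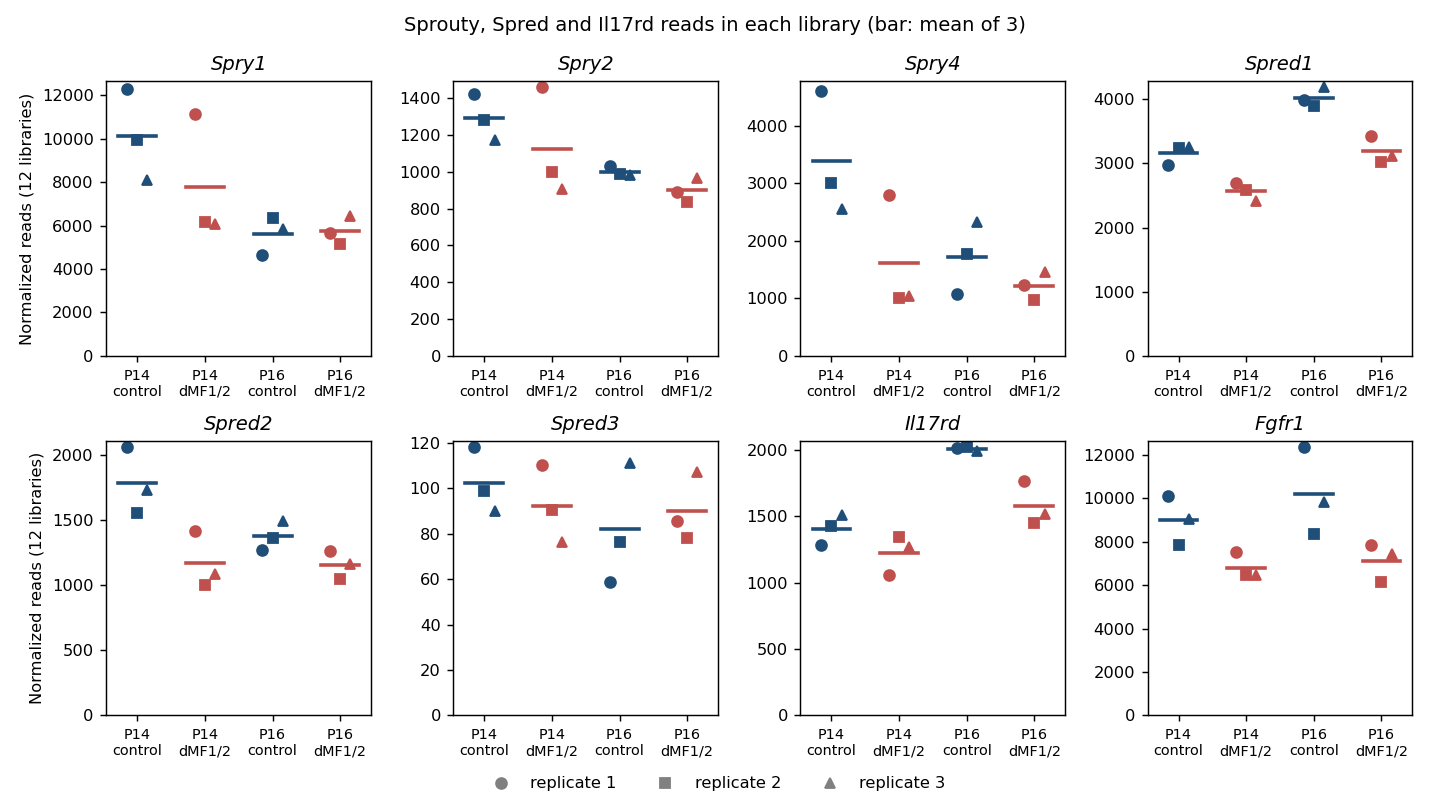
Normalized reads of the 7 members and of Fgfr1 on the scale of 12 libraries (y axes from 0), with 1 point per library, its replicate number as the shape, control in blue, dMF1/2 in red, and a bar at each mean of 3. Spred1 and Spred2 of dMF1/2 mice lie below control on both days, and the P14 libraries numbered 1 are the highest of their groups for Spry1, Spry2 and Spry4.

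Over both days, Spred1, Spred2 and Il17rd were lower in dMF1/2 than in control mice, to 0.802, 0.741 and 0.824 of control. These 3 of 7 members passed limma's test at an adjusted p under 0.05, where 3.36% of all 13415 genes tested were called lower and no member was called higher. Spry4 had the largest difference, to 0.565 of control, but did not pass with an adjusted p of 0.108. With the block, Spry4 was called too, giving 4 of 7 members where 6.47% of genes were called lower, and DESeq2 also called these 4 (adjusted p = 0.0438 for Spry4), with 9.94% of genes called in either direction. Spry1, Spry2 and Spred3 were not called. Over both days 11 of 13 DP markers were above 0 (median log2 fold change 0.58), with 3 called higher and 1 lower. Below 0 were 10 of 11 dissociation stress genes (median -0.30) and 5 of 6 endothelial markers (median -0.37), with none called. What these shifts contribute to the 3 calls was not tested.

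The Spred genes come first, since their proteins act at RAS through neurofibromin. Spred1 had 2936, 3200 and 3209 normalized reads in the P14 control mice numbered 1 to 3, and 2653, 2568 and 2386 in the dMF1/2 mice. At P16 the control mice had 4046, 3954 and 4247 and the dMF1/2 mice 3507, 3077 and 3180. All dMF1/2 values lay under the lowest control value of their day, and the gap was about as wide on both days. The log2 fold change was -0.30 (SE 0.09) at P14, -0.33 (SE 0.08) at P16 and -0.32 (SE 0.06) over both days, with the limma adjusted p of 0.419, 0.0711 and 0.00681. The exact permutation test over both days gave p = 0.005, the smallest that its 400 arrangements allow. Spred1 remained called over both days in all 12 fits that left out 1 library, with the limma adjusted p between 0.0077 and 0.0248, and without both P14 libraries numbered 1, with 0.0104. With the block, it was called at P16 too (adjusted p = 0.0315).

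Spred2, whose protein also recruits neurofibromin, had 2030, 1534 and 1709 normalized reads in P14 control and 1394, 990 and 1076 in P14 dMF1/2 mice. At P16 the control values were 1291, 1383 and 1510, against 1290, 1068 and 1185 in dMF1/2 mice. The groups did not overlap on either day, but at P16 the highest dMF1/2 library and the lowest control library were all but equal. The log2 fold change was -0.61 (SE 0.16) at P14, -0.24 (SE 0.10) at P16 and -0.43 (SE 0.10) over both days, with the limma adjusted p of 0.351, 0.243 and 0.0254. The exact permutation test over both days gave p = 0.005, the smallest it allows. The call over both days was lost without P14 control replicate 3, P14 dMF1/2 replicate 3, P16 control replicate 3, P16 dMF1/2 replicate 2 or P16 dMF1/2 replicate 3, with a limma adjusted p of at most 0.0672, and the adjusted p was 0.0111 without both P14 libraries numbered 1. With the block, Spred2 was also called at P14 (adjusted p = 0.0110).

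Spred3 was near the bottom of the range, with 75.5 to 116 normalized reads at P14 and 59.4 to 113 at P16. Its groups overlapped on both days, and its log2 fold change was -0.15 (SE 0.19) at P14 and 0.18 (SE 0.25) at P16. An exon of Spred3 overlaps one of Ggn on the opposite strand, and one of Spry1 overlaps Gm42922 on the opposite strand. The libraries kept strand, but the strand setting of the counting was not given in the sources used here, so reads of these partners cannot be told apart.

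Il17rd had 1265, 1404 and 1493 normalized reads in P14 control and 1045, 1330 and 1256 in P14 dMF1/2 mice, with overlap. At P16 the control mice had 2041, 2056 and 2014 and the dMF1/2 mice 1806, 1472 and 1547. The P16 control values were nearly the same in 3 mice, and all dMF1/2 mice lay below them. The log2 fold change was -0.20 (SE 0.12) at P14, -0.35 (SE 0.09) at P16 and -0.28 (SE 0.07) over both days, with the limma adjusted p of 0.839, 0.0842 and 0.0488. The exact permutation test over both days gave p = 0.01. The call over both days lay at the threshold. It was lost with TMM scaling (0.0502), upper-quartile scaling (0.0624), no filter on low values (0.0513) and edgeR (0.0505), in 9 of the 12 fits that left out 1 library (up to 0.123, all but those without P14 control replicate 1, P14 dMF1/2 replicate 2 or P16 dMF1/2 replicate 1), and without both P14 libraries numbered 1 (0.0516), each an adjusted p. With the block it was 0.0113, and Il17rd was called at P16 as well (adjusted p = 0.0391).

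**Figure D2:**
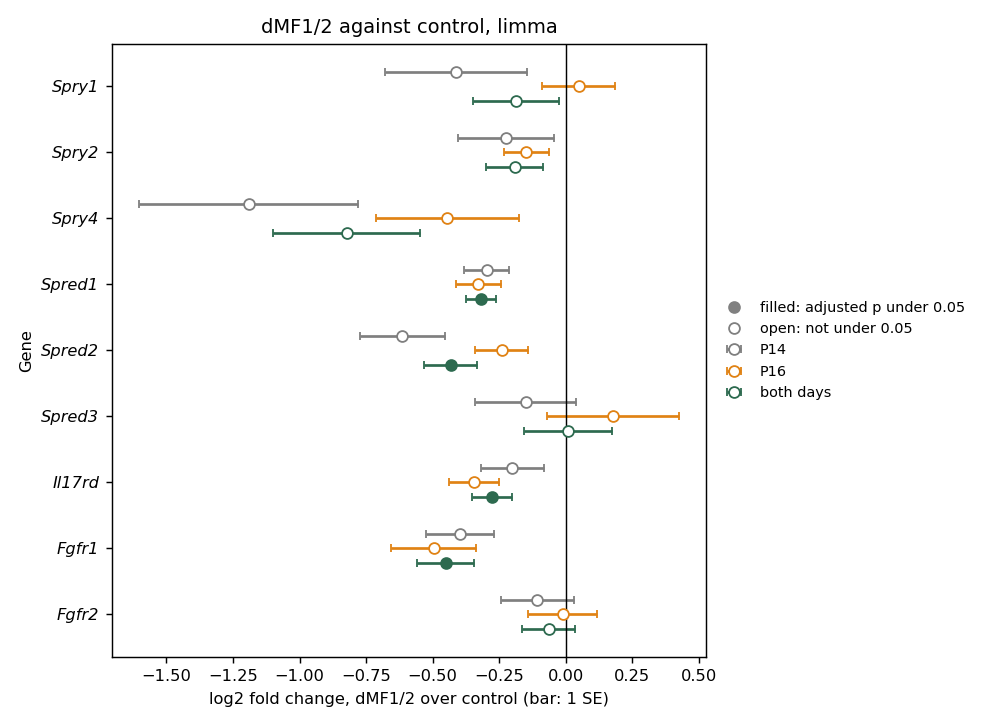
log2 fold change of dMF1/2 over control (x axis, bar: 1 SE, limma) for each member, Fgfr1 and Fgfr2 (y axis) at P14, at P16 and over both days, filled where the adjusted p was under 0.05. The filled points are Spred1, Spred2, Il17rd and Fgfr1 over both days, and among the members Spry4 has the largest differences and the widest bars.

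Among the Sprouty genes, Spry4, an inhibitor of receptor tyrosine kinase signalling upstream of RAF, had 4535, 2963 and 2518 normalized reads in P14 control and 2748, 1003 and 1031 in P14 dMF1/2 mice. At P16 the control values were 1091, 1804 and 2351, against 1254, 981 and 1490 in dMF1/2 mice. The groups overlapped on both days, at P14 through the dMF1/2 mouse numbered 1, which had more reads than the control mouse numbered 3. Within pairs of the same number, the dMF1/2 library was lower in 5 of 6, with log2 differences from -1.56 to -0.72 at P14 and from -0.88 to 0.20 at P16. The log2 fold change was -1.19 (SE 0.41, adjusted p = 0.553) at P14 and -0.45 (SE 0.27, adjusted p = 0.436) at P16. With the block, the SE at P14 fell from 0.41 to 0.15 and the limma adjusted p to 0.0113, and the adjusted p over both days went from 0.108 to 0.00709. Without both P14 libraries numbered 1, Spry4 was called at P14 (log2 fold change -1.42, adjusted p = 0.0289) and over both days (-0.94, adjusted p = 0.0255), and leaving out dMF1/2 replicate 1 of P14 alone gave 0.0190 over both days. At P16 the value was -0.75 without control replicate 1 (adjusted p = 0.0847) and -0.20 without control replicate 3. The exact permutation test over both days, without pairing, gave p = 0.045.

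Spry1, the member with the most reads, had 12127, 9826 and 7982 normalized reads in P14 control and 10994, 6111 and 6001 in P14 dMF1/2 mice. At P16 the control values were 4729, 6451 and 5916, against 5800, 5247 and 6560 in dMF1/2 mice. The P14 groups overlapped through the dMF1/2 mouse numbered 1, and the P16 groups were interleaved. The log2 fold change was -0.41 (SE 0.27, adjusted p = 0.871) at P14, where each dMF1/2 library was lower than the control library of its number, and 0.05 (SE 0.14, adjusted p = 0.902) at P16. Dropping the dMF1/2 library numbered 1 took the P14 value to -0.70, dropping its control counterpart took it to -0.26, and dropping both gave -0.55. The P16 value was below 0 without control replicate 1 or without dMF1/2 replicate 3.

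Spry2 had 1404, 1264 and 1158 normalized reads in P14 control and 1442, 990 and 900 in P14 dMF1/2 mice. At P16 the control values were 1048, 1005 and 994, against 913, 852 and 988 in dMF1/2 mice, and there the groups did not overlap, by a margin of a few reads. The log2 fold change was -0.23 (SE 0.18) at P14 and -0.15 (SE 0.09) at P16, and the P14 value ranged from -0.43, when the dMF1/2 library numbered 1 was dropped, to -0.090, when the one numbered 3 was, and was -0.36 without both P14 libraries numbered 1. The limma adjusted p over both days was 0.347. It was 0.0489 without both P14 libraries numbered 1, 0.0341 (log2 fold change -0.30) when the dMF1/2 one alone was dropped, and 0.595 (-0.12) when P14 dMF1/2 replicate 3 was.

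**Figure D3:**
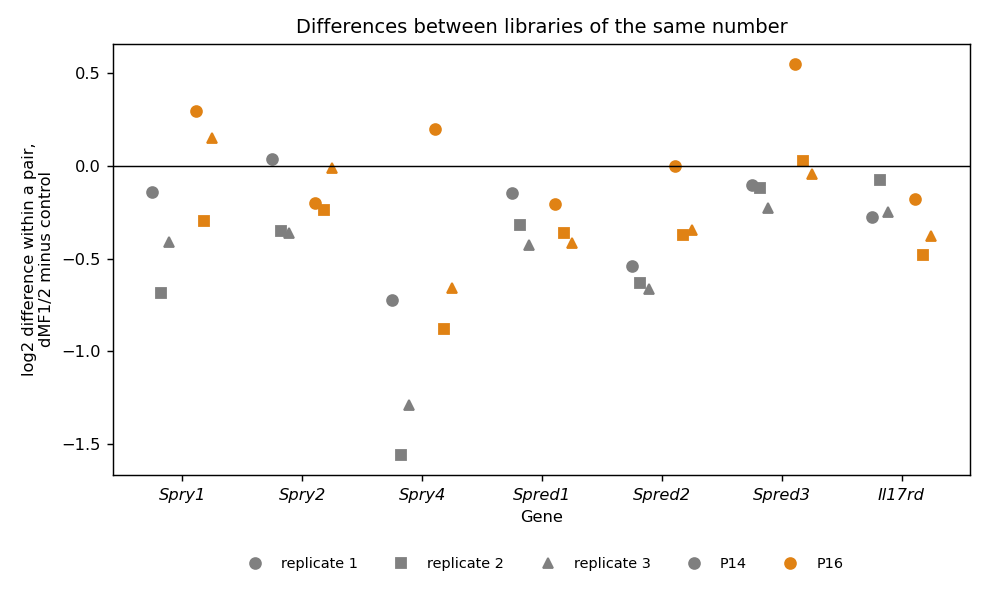
log2 difference of dMF1/2 minus control within each pair of libraries of the same number (y axis), for each member (x axis), P14 in grey and P16 in orange, with the replicate number as the shape. All 6 pairs lie below 0 for Spred1, Spred2 and Il17rd, the highest pair of Spred2 only just, and 5 of 6 for Spry2 and Spry4.

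Within single days no member passed limma's test of genotype. At P14, 0.0525% of 13334 genes were called in either direction, 7 in all, and 3 of the 7 members had an unadjusted p under 0.05, as did 7.32% of genes. DESeq2 and edgeR called no member there, while limma with the block called 2 members, Spry4 and Spred2, where 1.02% of genes were called lower. At P16, 4.32% of 13457 genes were called, and again 3 members had an unadjusted p under 0.05, as did 19.0% of genes. DESeq2 and limma with the block each called 2, Spred1 and Il17rd, and edgeR called none. DESeq2 called 8.33% of genes in either direction at P16, and the block called 5.56% lower. Groups did not overlap, with dMF1/2 below, for 2 of 7 members at P14, where this was so for 6.32% of genes, and for 4 of 7 at P16, where it was so for 11.6%. The median log2 fold change of the 7 members was -0.30 at P14 and -0.24 at P16, beside 0.00 over all genes tested on each day. The summed DP markers were higher in every dMF1/2 library of P16 (90369 to 136696 on the 12-library scale) than in every control library (41608 to 85891), while Spry2, Spred1, Spred2 and Il17rd were lower. Of the 13 markers, Alpl, Prom1 and Fgf10 were called higher and Crabp1 lower, and with the block 10 were called higher and 1 lower. The 11 dissociation stress genes moved the other way, with all 11 differences below 0 (median log2 fold change -0.38) and sums, on the same scale, of 309371 to 333442 in dMF1/2 mice, under 345563 to 499886 in control mice. Of these, Atf3 was called lower, and with the block 3 were. Fos, Egr1 and Ier2 belong both to this list and to that of the ERK-induced genes below, so the lists are not separate. Of 6 endothelial markers 5 were below 0 (median -0.87), with none called and Pecam1 and Esam called lower with the block, and their sums overlapped, at 629 to 895 in dMF1/2 and 539 to 1251 in control mice. All 6 sheath markers (median -0.21) and all 4 immune markers tested (median -0.31) were below 0 as well, with none called. The part of these shifts in the members' differences was not tested.

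From P14 to P16 the members moved in both directions in control mice. On the 12-library scale Spry1 fell to 0.559 of its P14 level, while Spred1 rose 1.27-fold and Il17rd 1.43-fold. These 3 of 7 members passed limma's test, 1 of them falling and 2 rising, where 8.28% of all genes fell and 6.26% rose. Spry1 went from 12282, 9966 and 8088 normalized reads at P14 to 4661, 6343 and 5843 at P16, with no overlap, a log2 fold change of -0.84 (SE 0.23, adjusted p = 0.0338). Il17rd went from 1281, 1424 and 1513 to 2012, 2022 and 1989 (log2 fold change 0.52, SE 0.11, adjusted p = 0.0112), and Spred1 from 2973, 3246 and 3251 to 3988, 3888 and 4195 (0.35, SE 0.08, adjusted p = 0.0158). Spry4 had a log2 fold change of -0.996 and Spred2 and Spry2 of -0.37 and -0.36, and without both P14 libraries numbered 1 these were -0.75, -0.26 and -0.29. The P16 libraries of these 3 genes lay below the P14 libraries without passing the test (the limma adjusted p of 0.106, 0.0966 and 0.119). In all, 4 members lay lower at P16 with no overlap, beside 18.4% of all genes, and 2 higher, beside 17.5%.

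In dMF1/2 mice Spred1 was the 1 member that passed. It rose from 2690, 2592 and 2409 to 3428, 3025 and 3120 normalized reads (log2 fold change 0.32, SE 0.08, adjusted p = 0.0389), 1 of 7 members called where 1.83% of genes rose. Il17rd had 1060, 1343 and 1268 at P14 and 1766, 1448 and 1518 at P16, with no overlap (0.37, SE 0.11, adjusted p = 0.0651). Spry1 had a log2 fold change of -0.38 and Spry4 of -0.25, with overlap in both, and without dMF1/2 replicate 1 of P14 these were -0.093 and 0.23. Without that library Spry2 went from -0.29 to -0.085 and Il17rd from 0.37 to 0.27. Spred2 stood at 0.00 (SE 0.14). Without overlap, 2 members lay higher at P16, beside 13.2% of genes, and 0 lower, beside 14.4%. Over the same days in dMF1/2 mice, 6 of 6 sheath markers (median -0.53) and 9 of 13 DP markers (median -0.20) were below 0. Above 0 were 5 of 6 endothelial markers (median 0.49) and 9 of 11 dissociation stress genes (median 0.15). None of these markers was called, and their part in the members' changes was not tested.

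The call of Spred1 in dMF1/2 mice was lost without replicate 2 or 3 of P14 or replicate 1 or 3 of P16 (limma adjusted p of at most 0.161), with edgeR, and in a fit of the 6 dMF1/2 libraries. In control mice, Spry1 and Spred1 both lost their calls without replicate 1 of P14 or replicate 1 or 3 of P16, and Spry1 also without replicate 2 of P14, with a limma adjusted p of at most 0.122 for Spry1 and 0.0588 for Spred1. Without both P14 libraries numbered 1 it was 0.0261 for Spry1 and 0.0503 for Spred1, and in a fit of the 6 control libraries Spred1 was not called either (0.0541). Over the same days, the summed DP markers of control mice went from 113059 to 156203 down to 41608 to 85891, with 6 of 13 markers called lower, and 4 of 11 dissociation stress genes were called higher. Of 6 endothelial markers Emcn and Esam were called higher (list median 1.27), and 3 were with a block for the replicate number over both days. That block ties P14 mice to other mice of P16 by number, a pairing that was not checked. The endothelial sums were 577 to 730 at P14, and at P16 they were 539 in replicate 1 and 1251 and 1177 in replicates 2 and 3. P16 control replicate 1 had the lowest DP sum and the lowest Spry1 and Spry4 of the P16 control libraries, and what these shifts contribute to the members' changes was not tested.

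**Figure D4:**
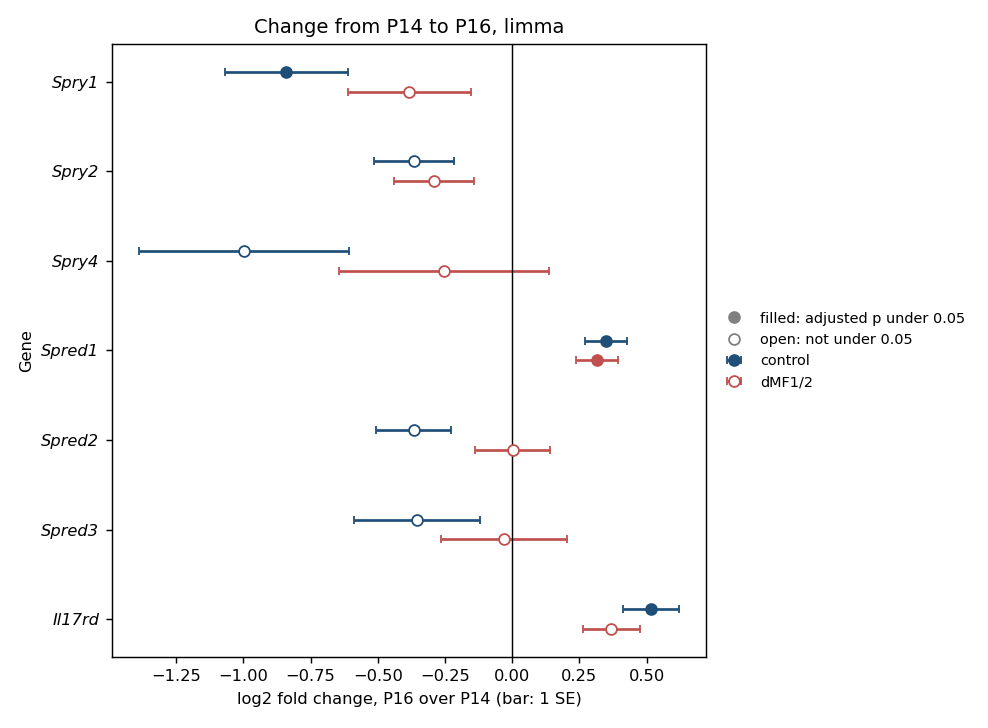
log2 fold change from P14 to P16 (x axis, bar: 1 SE, limma) of each member (y axis) in control and in dMF1/2 mice, filled where the adjusted p was under 0.05. Spred1 is filled in both genotypes, Spry1 and Il17rd in control, and Spry4 in control is at -0.996 with an open point.

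The difference between the genotypes in the change from P14 to P16 did not pass for any member or for any gene, 0% of 13415 (limma, with edgeR at 0 genes and DESeq2 at 7, none of them a member). Its log2 value was 0.74 for Spry4 (SE 0.55), 0.46 for Spry1 (SE 0.33), 0.37 for Spred2 (SE 0.20), -0.04 for Spred1 (SE 0.11) and -0.15 for Il17rd (SE 0.15). No member had an unadjusted p under 0.05, and with the block Spry4, Spry1 and Spred2 did, with 0.0305, 0.0324 and 0.0123, as did 10.9% of genes, while the limma adjusted p for them was 0.397, 0.404 and 0.296. For Spry4 the value lay between 0.44 and 1.22 in the fits without 1 library, and for Spry1 between 0.31 and 0.75. A difference between the days in the genotype effect on these 3 genes was therefore not shown.

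The members differed in how they varied over the 12 libraries. Spry1, Spry2 and Spry4 varied together (Pearson's r of log2 values 0.92 for Spry1 and Spry2, 0.88 for Spry1 and Spry4, 0.85 for Spry2 and Spry4), Spred2 went with Spry4 (0.93), and Spred1 went with Il17rd (0.90). Spred2 was also at 0.74 with Spry2 and 0.71 with Spry1, and Spred3, the member with the fewest reads, at 0.71 with both Spry1 and Spry4. The value was 0.30 for Spred1 and Spred2, 0.11 for Spred1 and Spry4, -0.34 for Spry1 and Spred1 and -0.64 for Spry1 and Il17rd. Without the P14 libraries numbered 1, over 10 libraries, the first set had 0.80, 0.79 and 0.78, Spred2 and Spry4 0.91, Spred1 and Il17rd 0.94, and Spry1 and Il17rd -0.38, while Spred2 had 0.73 with Spry2 and 0.59 with Spry1, and Spred3 had 0.54 with Spry1 and 0.56 with Spry4. The division was then less sharp, with r at 0.59 for Spred1 and Spred2, 0.43 for Spred1 and Spry4, 0.39 for Spred2 and Il17rd, 0.19 for Spry4 and Il17rd and 0.18 for Spry2 and Spred1. The libraries share genotype, day and sort, so that these values describe the 12 samples and no more. Among all genes averaging 100 normalized reads or more, the 2 most like Spry4 were Dusp4, a phosphatase of MAP kinases (0.97), and Adrbk1, a kinase of G protein-coupled receptors (0.97). Those most like Spred2 were Crabp1, which binds retinoic acid (0.98), and Vav3 (0.97). Spred1 was closest to Ttc39b (0.97) and Pik3cb (0.96), Il17rd to Syne1 and Dpy19l1 (both 0.97), Spry1 to Plppr3 and Rnf113a2 (both 0.96), and Spry2 to Zfp821 and Spry1 (both 0.92).

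Among 17 other genes that ERK induces, 5 were called lower in dMF1/2 mice at P16 and none higher, where 2.14% of genes were called lower, and the median log2 fold change of the list was -0.62. With the block, limma called 10 lower, beside 5.56% of genes. The 5 called were the Ets factors Etv4 with a log2 fold change of -2.41 (limma, adjusted p = 0.00154), Etv1 with -1.69 (0.00329) and Etv5 with -0.99 (0.00841), the ERK phosphatase Dusp6 with -0.996 (0.0125), and Myc, a growth regulator, with -0.86 (0.0426). Their SEs lay between 0.13 and 0.19. Dusp6 was not called without P16 control replicate 3 (0.0574), and Myc in all such fits but the one without P16 control replicate 2 (up to 0.136) and in the joint fit of 12 libraries. At P14 none of the 17 passed (median -0.36), while limma with the block called 3 lower, Etv1, Etv5 and Dusp4, beside 1.02% of genes. The joint fit of 12 libraries called Etv5. DESeq2 called 4 at P14, Etv5 (adjusted p = 1.64e-08), Etv1 (0.000472), Etv4 (0.00202) and Dusp6 (0.0395), where it called 1.55% of genes in either direction. Etv4 had 278, 197 and 217 normalized reads in P16 control and 42.1, 41.1 and 43.4 in P16 dMF1/2 mice, a wider relative gap than that of any member. This list was drawn up with results of these data known and is not independent evidence of its direction. It shares Fos, Egr1 and Ier2 with the dissociation stress genes.

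**Figure D5:**
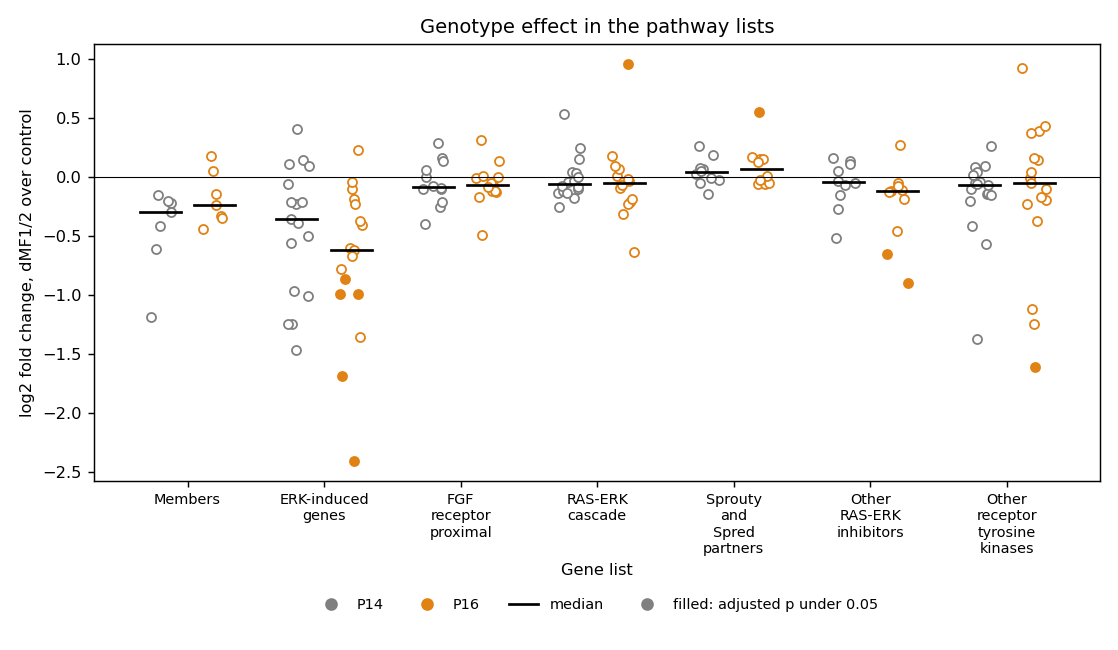
log2 fold change of dMF1/2 over control (y axis) of each tested gene of 7 lists (x axis) at P14 in grey and P16 in orange, filled where the limma adjusted p was under 0.05, with a bar at the median. The ERK-induced genes reach -2.41, the members stay between -1.19 and 0.18, and the other lists have medians near 0.

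The rest of the pathway had few calls at P16, and none at P14 in these 5 lists. Of all genes, 2.18% were called higher and 2.14% lower at P16. Of 16 genes of the RAS to ERK cascade, 1 was called, the scaffold Ksr1, higher in dMF1/2 mice (0.96, SE 0.11, adjusted p = 0.00604), and limma with the block called Ksr1 at P14 as well (0.0481) and, at P16, the ERK kinase Mapk3 lower (-0.31, adjusted p = 0.0354). Of 10 partners of Sprouty and Spred proteins, 1 was called, the ubiquitin ligase Cblb, higher in dMF1/2 mice (0.55, SE 0.11, adjusted p = 0.0353), but not in the joint fit (0.0620) or in the fits without 1 library other than P16 dMF1/2 replicate 2 (up to 0.118). Of 10 other inhibitors tested, the RAS GTPase activating proteins Rasa3 (-0.90, SE 0.15, adjusted p = 0.0190) and Dab2ip (-0.65, SE 0.14, adjusted p = 0.0449) were called lower. Of 17 other receptor tyrosine kinases, Erbb3, a neuregulin receptor, was called lower (-1.61, SE 0.21, adjusted p = 0.00841). With the block, limma called 2 of these kinases higher, Erbb2 and Pdgfra, where 4.87% of genes were, and 3 lower, Egfr, Erbb3 and Kit, where 5.56% were. Rasa3 lost its call without P16 control replicate 3, dMF1/2 replicate 2 or dMF1/2 replicate 3 (up to 0.0788), and Dab2ip in all fits without 1 library but that without P16 control replicate 2 (up to 0.132). None of 13 genes close to the Fgf receptors was called, and those with the largest differences were Fgfr1 (-0.50) and the adaptor Frs3 (0.31).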

How the data were processed

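The authors depleted ribosomal RNA, made stranded libraries and sequenced single-end reads. Per the labels and methods, they trimmed with Trimmomatic, mapped to mm10 with TopHat v2 and counted per gene of Ensembl GRCm38.p4 with HTSeq-count. Each deposited table holds 1 day, with signal values that are reads divided by the DESeq2 size factors over its 6 libraries, for 15209 protein-coding genes at P14 and 15334 at P16. Every value gave whole reads within 0.01 (100% of values), so reads were recovered. The authors' own comparison columns (mean, log2 fold change, its error, test statistic, p and adjusted p) were not used.

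Genotypes were compared within a day by limma 3.58.1 in R 4.3.3 (empirical Bayes with a mean-variance trend) on log2(value + 1), keeping genes that averaged 10 or more, adjusted by the Benjamini-Hochberg method over all of them and called under 0.05. Fold changes are on this log2(value + 1) scale. Both days, changes between days and the interaction came from 1 fit of 12 libraries in 4 groups, on reads of the 14986 shared genes rescaled by median of ratios. Each library was 1 mouse. Exact permutation tests of group means were two-sided, with a smallest p of 0.1 for 3 against 3. Per-kb values divide by the union of exons in GENCODE. The fits were tested on simulated data.

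Deviations from group means of libraries with the same number correlated at 0.586, 0.389 and 0.304 at P14 and 0.256, 0.293 and 0.311 at P16. Libraries of different numbers had -0.427 to 0.0975, and deviations within a group are tied to each other. The labels state no pairing, so the pairing by number within a day was inferred from these data. Blocked values rest on it and are given for members where they change a call and for some of the lists. For changes between days the block instead joined libraries of the same number over both days and genotypes. Those are different mice, and that pairing was not checked. Alternatives were DESeq2 1.42.0, edgeR 4.0.16, TMM and upper-quartile scaling, pseudocounts of 0.1 and 10, no filter, at least 10 reads in every library, other sets of libraries in the fit, and each library left out. Leaving out both P14 libraries numbered 1 was added after seeing the data. The members, lists and tests were chosen with earlier results of these data known. Named genes are all members, Fgfr1 and Fgfr2, up to 5 called genes per pathway list by adjusted p within a day (otherwise the 2 with the largest difference at P16), and the 2 genes most correlated with each member with a mean of at least 100. The markers named, and Mapk3, Erbb2, Pdgfra, Egfr, Kit and Dusp4 among the genes called with the block, were chosen after their values were seen. Spred3 was under that mean. Samples of other days were not analysed here.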

Additional observations from a re-analysis of the deposited data

How the results depend on the processing

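The count of members called moved as follows, with the share of all genes called in either direction in brackets. At P14, 0 were called by limma (0.0525%), 2 with the replicate block (1.68%) and 1 without both P14 libraries numbered 1 (0.0676%). Every P14 fit without 1 library gave 0 (0% to 0.135%). At P16, 0 (4.32%) became 2 with DESeq2 (8.33%), 2 with the replicate block (10.4%) and 1 in the joint fit of 12 libraries (4.44%). Every P16 fit without 1 library gave 0 (1.11% to 5.08%). Over both days 3 (6.54%) became 4 with DESeq2 (9.94%), with the replicate block (12.6%) and without both P14 libraries numbered 1 (4.69%). The count was 2 with edgeR (6.7%), TMM (6.53%), upper-quartile scaling (6.53%) or no filter (5.71%), and 1 to 4 in fits without 1 library (3.19% to 6.58%). From P14 to P16 in control, 3 (14.5%) became 2 in the fit of 6 libraries (6.01%) and 1 to 3 in fits without 1 library (5.17% to 14.5%). In dMF1/2 mice, 1 (5.8%) became 2 with DESeq2 (9.92%), 0 with edgeR (5.72%) and 0 in the fit of 6 libraries (2.41%). Fits of that change without 1 library gave 0 to 1 (1.92% to 5.05%). The interaction gave 0 throughout. The replicate block changed no call of a member other than those given with the results. It moved the genes called from 7 to 224 at P14, from 582 to 1403 at P16 and from 877 to 1684 over both days, and DESeq2 moved them to 207, 1121 and 1334.

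Signs turned only for values near 0 or with wide errors. Over both days Spred3 was 0.01, and -0.00341 with DESeq2, -0.00273 with edgeR and -0.00520 without both P14 libraries numbered 1. Spred2 from P14 to P16 in dMF1/2 mice was 0.00, and -0.00967 with DESeq2, -0.022 with edgeR, -0.013 with TMM and -0.024 with upper-quartile scaling. Without both P14 libraries numbered 1, Spry4 and Spred3 in that change were 0.23 and 0.10, and Spred1 in the interaction was 0.043. Leaving out 1 library gave Spry1 at P16 -0.080 to 0.14, Spred3 at P16 -0.038 to 0.42, over both days -0.10 to 0.13 and in the dMF1/2 change -0.16 to 0.10, Spred2 in that change -0.10 to 0.15, Spry4 there -0.50 to 0.23, Spred1 in the interaction -0.088 to 0.0073, Spry2 there -0.064 to 0.28, and Fgfr2 -0.22 to 0.031 at P14, -0.086 to 0.13 at P16 and -0.12 to 0.0072 over both days. The cause was not tested.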
